A study of Homo sapiens with 14 samples.

Results

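BT-549 is an established human triple-negative breast cancer cell line, and this account covers the experiment in which its cells received siRNA against ADAR. It consists of 3 of the 14 RNA sequencing libraries of the study, taken by their labels: 2 libraries of BT-549 cells with ADAR siRNA, called library 1 and library 2 here, and 1 library of BT-549 cells with control siRNA. An siRNA is a short duplex RNA that directs cleavage of a matching transcript. Whether libraries 1 and 2 are repeats of 1 siRNA or carry different siRNAs, whether they came from separate cultures, and how long after transfection RNA was taken are not given in the sources used here. The same ADAR siRNA and control siRNA groups were made in MDA-MB-231 (triple-negative breast cancer), NCI-H1395 (lung adenocarcinoma) and AGS (gastric cancer) cells, 9 libraries that serve here for the spread and for comparison.

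ADAR encodes ADAR1, an enzyme that converts adenosine to inosine in double-stranded RNA. Editing marks the cell's own duplex RNA as self, and in many cells loss of ADAR1 lets that RNA reach cytosolic sensors such as MDA5 (IFIH1), PKR (EIF2AK2) and the OAS enzymes, which feed the interferon response, the integrated stress response and RNase L. Inflammatory transcription through NF-kappaB is a further arm that dsRNA sensors can switch on, and interferon in turn raises ADAR itself. The genes below are ordered along that path, from ADAR and the sensors to the response genes, and then to the matrix, contractile, growth and metabolic genes.

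Total counts were 19204941 and 23378934 in libraries 1 and 2 and 21466259 in the control, within the range of 13338338 to 27828376 over the study. Mitochondrially encoded genes took 5.17% and 5.03% of counts with ADAR siRNA and 4.98% with control siRNA. Of 62699 genes, 23959 had enough counts to be tested, and 10518 of these averaged at least 5 CPM (reads of a gene scaled to the size of the library, here after TMM scaling) over the 3 libraries; statements about gene lists concern the latter. Per kilobase of transcript, the mesenchymal markers VIM (252 to 393 RPKM) and ZEB1 (10.96 to 13.4 RPKM) were present in the 3 libraries. The epithelial markers EPCAM (0 RPKM) and CDH1 (at most 0.0378 RPKM) and the hormone receptors ESR1 (at most 0.00334 RPKM) and PGR (0 RPKM) were at or near 0, as the labelled cell type has it. One defining mesenchymal marker, CDH2, was also near 0 (at most 0.0107 RPKM), while the luminal factor GATA3 was present (7.87 to 11.7 RPKM). The epithelial marker KRT18 was present too (23.8 to 31.4 RPKM), with KRT8 (at most 0.627 RPKM) and KRT19 (at most 0.0219 RPKM) low. ERBB2, which encodes the HER2 receptor, was at 9.79 to 12.9 RPKM. The 16 lung and stomach lineage markers summed to 0.815 and 0.918 CPM with ADAR siRNA and 0.665 CPM with control siRNA, and the 15 immune cell markers to 3.20 and 3.26 CPM against 4.50 CPM.

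ADAR (ENSG00000160710.18; hg38, chromosome 1, 154581695 to 154628013) stood at 104 CPM in library 1 and 92.7 CPM in library 2, against 808 CPM in the control library. The ADAR siRNA libraries thus held 12.9% and 11.5% of the control level and lay close to each other. By edgeR's quasi-likelihood test ADAR fell by 3.04 ± 0.26 on the log2 scale over the pair (standard error; adjusted p = 1.78e-06), with -2.95 ± 0.36 in library 1 (adjusted p = 9.05e-06) and -3.12 ± 0.37 in library 2 (adjusted p = 2.48e-06). ADARB1, the second editing enzyme (ADAR2), was at 22.1 and 16.5 CPM with ADAR siRNA and 18.1 CPM with control siRNA, so that the 2 libraries lay on either side of the control. NOP14, a nucleolar factor for making the small ribosomal subunit that the study overexpressed elsewhere, was at 31.4 and 20.003 CPM against 29.7 CPM, again on either side.

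ADAR was the one gene that passed the test in both libraries. Over the pair, edgeR called 1 of 23959 genes at an adjusted p of 0.05 (0.00417%), which was ADAR, and 742 genes had an unadjusted p under 0.05 (3.1%). DESeq2 called 3 genes, which were ADAR, CKAP4 and RN7SL3, all lower, and edgeR called 27 with no filter on low counts, 6 without NCI-H1395 and 4 without AGS, so the count depends on the fit. Library 1 alone gave 1 call (0.00417%; 631 genes or 2.63% at an unadjusted p under 0.05), again ADAR, and library 2 alone gave 30 calls (0.125%), 23 higher (0.096%) and 7 lower (0.0292%). ADAR was the 1 gene called with the same sign in both libraries (0.00417%). On simulated counts of 22723 genes, the pair test recovered 23% of 2-fold and 91% of 4-fold changes, and the single-library tests recovered 10% (library 1) and 11% (library 2) of 2-fold changes. Changes of 2-fold were thus mostly out of reach of the test, and a gene that missed the threshold is not shown to be unchanged. The same simulation called 24 unchanged genes in library 2, 31 in library 1 and 17 over the pair. That simulation had 200 genes changed by design, and its library 2 test also recovered 82% of 4-fold changes. The study's own counts gave 1 call in library 1 and 1 over the pair, fewer than the simulated false calls there. The 24 thus does not give the number of false calls among the 30 calls of library 2, which was not measured. There is 1 control library, so its own spread could not be measured, and the test assumes that it varies like the ADAR siRNA pairs of the 4 lines.

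A second, descriptive rule was therefore used, chosen after the single call was seen: genes averaging at least 5 CPM whose level differed from the control by at least 2-fold in the same direction in both libraries, in log2 ratios with a prior count of 2 that draws low levels toward the control. It took 21 of 10518 genes on the higher side (0.2%) and 8 on the lower side (0.0761%), ADAR included. Plain ratios of CPM would have taken 24 and 8. The average behind the 5 CPM minimum holds 2 ADAR siRNA libraries and 1 control library. A gene low in the control, such as RGS5 (1.59 CPM there) or ACKR3 (1.74 CPM), thus entered through the ADAR siRNA libraries. On the lower side, CSF3 and CKAP4 entered through the control. The numbers on the higher and lower sides are therefore not comparable. In library 1 alone, 55 genes (0.523%) were at least 2-fold higher and 45 (0.428%) lower, and in library 2 alone 261 (2.48%) were higher and 107 (1.02%) lower. None of these genes other than ADAR passed the pair test, so their values are given as measured, with 95% counting intervals that cover counting error only. Both ratios share the 1 control library, so a deviation of that library would move both the same way. Agreement of libraries 1 and 2 is therefore not 2 independent comparisons, here and in the list counts below.

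**Figure D1:**
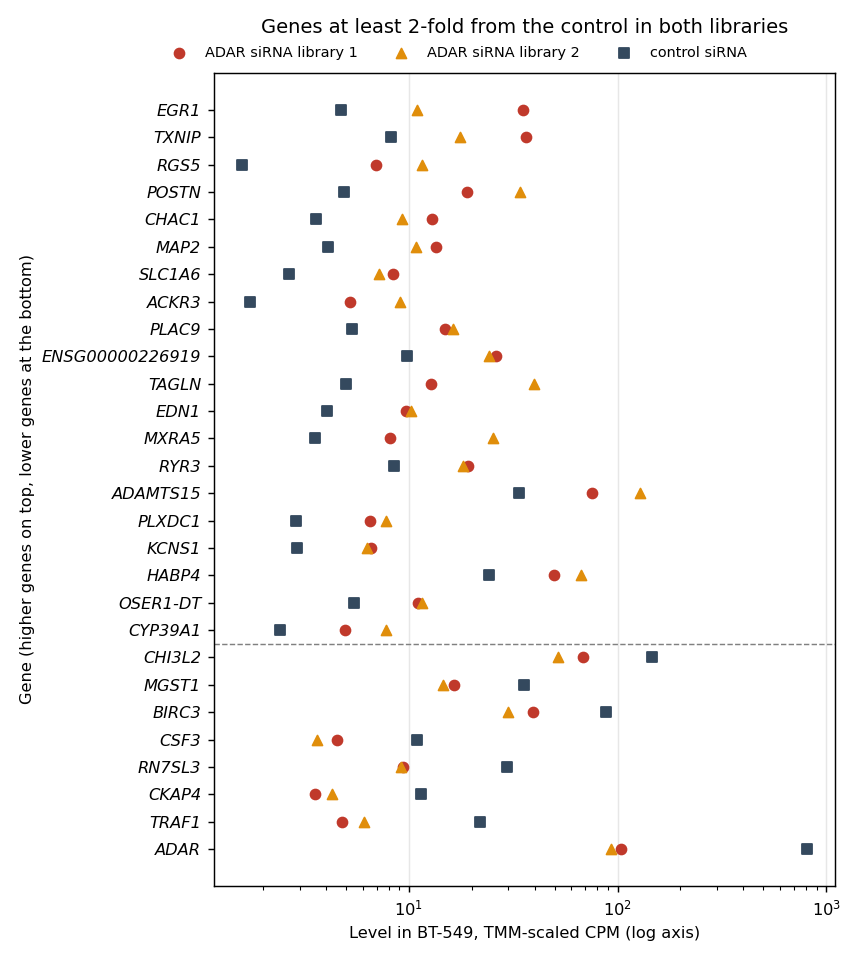
Level of 28 of the 29 genes at least 2-fold from the control in both libraries, in TMM-scaled CPM on a log axis, with circles for library 1, triangles for library 2 and squares for the control siRNA library. The 20 higher genes drawn stand above the dashed line and the 8 lower ones below it; ADAR, at 104 and 92.7 CPM against 808 CPM, lies farthest from its control on the lower side.

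Short stretches of promoter are shown for 3 of these genes, since each holds a sequence that a well-known factor of its pathway can bind: NF-kappaB for BIRC3, ATF4 for CHAC1 and serum response factor for EGR1. The sequences are RefSeq promoters of GRCh38.p14, read 5′ to 3′ on the gene's strand, with the matching letters in capitals. Positions in brackets count from the start site that this RefSeq table gives. For CHAC1 that site lies inside the gene as the counted annotation has it (chromosome 15, 40952962 to 40956512), and so does the sequence shown.
BIRC3, chr11:102317275-102317304 (-199 to -190): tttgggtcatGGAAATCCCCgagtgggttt
CHAC1, chr15:40953251-40953280 (-209 to -202): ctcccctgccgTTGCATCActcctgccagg
EGR1, chr5:138465364-138465393 (-105 to -96): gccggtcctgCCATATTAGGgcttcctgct
EGR1, chr5:138465386-138465415 (-83 to -74): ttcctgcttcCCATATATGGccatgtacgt
The motifs were searched on both strands in windows of 300 bases. The kappaB motif GGGNNNTTCC stood in 6.52% of 35116 promoters and, among the 20 of the 29 genes that had an entry, in BIRC3 and EDN1. The CARE motif TGATGNAA (the C/EBP-ATF response element) stood in 3.62% of promoters and in CHAC1 and TRAF1. The CArG box stood in 1.29% of promoters and in EGR1. The motifs were chosen after the values were seen, and a match is a description of the sequence, not evidence of binding.

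Among the NF-kappaB inflammatory genes, both ADAR siRNA libraries tended to lie below the control. Of 19 measured members 14 were below it in both libraries and 2 above it in both, where 34% of all 10518 genes were below and 28% above in both. The same shares are the measure for the list counts further down. The median log2 ratio was -0.35 in library 1 and -0.31 in library 2, against -0.01 and -0.04 over all genes. 4 members had an unadjusted p under 0.05 over the pair and all 4 were on the lower side, the share over all genes being 0.504%. None of the 19 passed the adjusted test.

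TRAF1 (hg38, chromosome 9, 120902393 to 120929173), an adaptor of TNF receptors and an NF-kappaB target, was at 4.77 and 6.10 CPM in libraries 1 and 2 and 21.95 CPM in the control. Its control level was 4.60-fold (3.62 to 5.90) that of library 1 and 3.60-fold (2.96 to 4.40) that of library 2, and the pair log2 fold change was -2.01 ± 0.39 (edgeR adjusted p = 0.349). BIRC3, the inhibitor of apoptosis cIAP2 that works beside TRAF1 and whose promoter is shown above, was at 39.1 and 30.005 CPM with ADAR siRNA and 88.3 CPM with control siRNA. Both genes were below the control in both libraries, beyond counting error, and neither passed the pair test. CSF3, a granulocyte growth factor, was at 4.54 and 3.62 CPM against 10.9 CPM, and CCL5, a chemokine for lymphocytes, at 11.2 and 7.98 CPM against 18.8 CPM. Larger transcripts of the list lay nearer to the control: SOD2, the mitochondrial superoxide dismutase, was at 865 and 823 CPM against 1221 CPM, and ICAM1, an adhesion molecule, at 158 and 136 CPM against 206 CPM. NFKBIA, the inhibitor that NF-kappaB induces against itself, was at 67.0 and 69.3 CPM against 85.7 CPM. Not every member followed: CXCL3, a neutrophil chemokine, was at 7.16 and 8.49 CPM against 5.53 CPM, and NFKBIZ, a nuclear IkappaB protein, at 65.3 and 91.9 CPM against 61.5 CPM. The result for TRAF1 and BIRC3 depends on the fit: in edgeR's test TRAF1 passed over the pair with no filter on low counts (adjusted p = 2.57e-05) and when NCI-H1395 (adjusted p = 0.0486) or AGS (adjusted p = 0.00262) was left out. BIRC3 passed with no filter (edgeR adjusted p = 0.00368) and without AGS (edgeR adjusted p = 0.0479).

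The dsRNA sensors and interferon-stimulated genes did not stand above the control. Of 13 measured dsRNA sensors, 2 were above and 6 below in both libraries, with median log2 ratios of 0.00 in library 1 and -0.31 in library 2. EIF2AK2, which encodes PKR, was at 287 and 226 CPM with ADAR siRNA and 317 CPM with control siRNA. IFIH1, which encodes MDA5, was at 85.9 and 54.4 CPM against 86.4 CPM, and RIGI at 6.29 and 6.10 CPM against 6.40 CPM. Library 1 was level with the control for both RNA helicases, and library 2 was lower for IFIH1. The OAS enzymes, which make the messenger that activates RNase L, showed the same split: OAS1 was at 88.4 and 57.0 CPM against 98.9 CPM, and OAS3 at 925 and 541 CPM against 923 CPM.

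Of 38 measured interferon-stimulated genes, 22 were below the control in both libraries and 4 above it in both. The median log2 ratio was -0.04 in library 1 and -0.53 in library 2, so the 2 libraries did not share a shift of this list as a whole. LGALS3BP, a secreted galectin-binding glycoprotein, was at 48.0 and 29.7 CPM against 81.2 CPM (pair log2 fold change -1.06 ± 0.29; edgeR unadjusted p = 0.00147), and CMPK2, a mitochondrial nucleotide kinase, at 15.8 and 11.8 CPM against 25.4 CPM. IFITM1, an antiviral membrane protein, lay just outside the 2-fold rule at 26.5 and 12.8 CPM against 52.9 CPM. These 3 genes were lower in both libraries, and the 2-fold rule would have taken IFITM1 in library 2 alone. ISG15, the ubiquitin-like antiviral protein, was at 283 and 214 CPM against 414 CPM, and IFIT3 at 130 and 74.9 CPM against 162 CPM. MX1, a dynamin-like antiviral GTPase, was at 212 and 125 CPM against 218 CPM, level with the control in library 1. DDX60, an RNA helicase, was among the few on the other side, at 45.6 and 50.9 CPM against 39.0 CPM.

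MHC class I presentation genes tended to lie below the control, with small medians and a lowest single log2 ratio of -1.56. The interferon ligands and receptors were spread around it. Of 16 measured presentation genes 10 were below the control in both libraries and 1 above, with median log2 ratios of -0.02 in library 1 and -0.24 in library 2. HLA-B was at 28.8 and 24.4 CPM against 40.3 CPM and the peptide transporter TAP1 at 158 and 105 CPM against 164 CPM; HLA genes share reads with each other, so their single values are uncertain. Of the 5 measured interferon ligands and receptors, IFNAR1 was at 63.3 and 71.2 CPM against 76.8 CPM and IFNGR2 at 16.2 and 11.3 CPM against 17.9 CPM. Apart from ADAR, the 15 measured RNA editing and dsRNA binding genes were spread around the control, 5 above and 5 below in both libraries (ADAR counted among the latter). Over all genes 28% were above and 34% below in both. DHX9, a helicase that unwinds duplex RNA, was at 406 and 291 CPM against 426 CPM. Of 13 genes of the microRNA and siRNA machinery 1 was above and 5 below in both, with AGO2, which carries out siRNA cleavage, at 227 and 179 CPM against 237 CPM.

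The integrated stress response is the ATF4 programme that phosphorylation of eIF2alpha by PKR and related kinases sets off. Of 25 measured members 14 were above the control in both libraries and 4 below, with median log2 ratios of 0.30 in library 1 and 0.05 in library 2. 4 members had an unadjusted p under 0.05 over the pair, all on the higher side, where the share over all genes was 1.21%. CHAC1, which degrades glutathione and is a late ATF4 target, was at 12.9 and 9.31 CPM with ADAR siRNA and 3.58 CPM with control siRNA, or 3.59-fold (2.73 to 4.77) in library 1 and 2.60-fold (1.97 to 3.46) in library 2. SLC7A5, an amino acid transporter, was at 405 and 336 CPM against 221 CPM, and DDIT4, an inhibitor of mTORC1, at 264 and 366 CPM against 199 CPM. SESN2, a stress-induced leucine sensor, was at 17.5 and 16.5 CPM against 9.26 CPM. All 4 were higher in both libraries and none passed the adjusted test. The transcripts of the factors themselves went different ways, with ATF4 at 238 and 204 CPM against 277 CPM, ATF5 at 50.5 and 44.0 CPM against 71.4 CPM, and ATF3 at 17.6 and 8.07 CPM against 6.65 CPM. PHGDH, the entry enzyme of serine synthesis, was at 97.4 and 62.3 CPM against 41.5 CPM. The 20 tRNA synthetases, many of them ATF4 targets, had medians of 0.12 in library 1 and -0.31 in library 2, and AARS1 was at 401 and 269 CPM against 266 CPM. The 20 endoplasmic reticulum chaperones were near the control, with medians of -0.01 and -0.02 and HSPA5 (BiP) at 1818 and 1628 CPM against 1549 CPM.

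Growth restraint and immediate early genes were mostly above the control, 15 of 18 in both libraries and 1 below in both, with median log2 ratios of 0.47 in library 1 and 0.54 in library 2. EGR1, the immediate early zinc finger factor whose CArG boxes are shown above, was at 35.3 and 10.9 CPM with ADAR siRNA and 4.71 CPM with control siRNA. TXNIP, an arrestin-like protein that limits glucose uptake, was at 36.4 and 17.5 CPM against 8.24 CPM. Both genes were above the control in both libraries and higher in library 1, and the pair log2 fold changes had large errors (2.29 ± 1.26 for EGR1 and 1.71 ± 0.64 for TXNIP). TSC22D1, a TGF-beta-induced leucine zipper protein, was at 165 and 213 CPM against 116 CPM, ARRDC3, a relative of TXNIP, at 65.1 and 45.6 CPM against 28.9 CPM, and KLF10 at 87.6 and 68.4 CPM against 50.8 CPM. JUN, a subunit of AP-1, was at 349 and 474 CPM against 285 CPM.

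Matrix genes formed the other large group above the control. Of 13 measured matrix glycoproteins and proteoglycans 10 were above it in both libraries and 1 below in both, with median log2 ratios of 0.58 in library 1 and 0.78 in library 2. POSTN (hg38, chromosome 13, 37562583 to 37598844), which encodes periostin, a matrix protein of activated stroma, was at 18.9 and 34.0 CPM with ADAR siRNA and 4.86 CPM with control siRNA, or 3.89-fold (3.09 to 4.94) in library 1 and 6.98-fold (5.63 to 8.74) in library 2. THBS1, which encodes thrombospondin 1, an activator of latent TGF-beta, was at 834 and 1353 CPM against 441 CPM. FN1, which encodes fibronectin, was at 35.9 and 82.1 CPM against 22.9 CPM, and FBN1, the fibrillin of microfibrils, at 221 and 139 CPM against 110 CPM. In each of these genes both libraries were above the control, and in POSTN, THBS1 and FN1 library 2 was the higher. The unadjusted pair p-values from edgeR were 0.000703 for POSTN, 0.000885 for THBS1 and 0.00356 for FN1, and none passed the adjustment. SPARC, a collagen-binding protein, was at 406 and 428 CPM against 249 CPM, while TNC, which encodes tenascin C, lay on either side at 123 and 192 CPM against 168 CPM.

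Since fibroblasts and pericytes also make these genes, their markers were read beside them: the 11 listed markers summed to 204 and 229 CPM with ADAR siRNA and 156 CPM with control siRNA. THY1, whose levels are given below, made up most of each sum. Of the 11, 4 were at 0 in the 3 libraries, DCN among them. Of the 3 that averaged at least 5 CPM, 2 were above the control in both libraries (RGS5 and THY1). The part of these markers in the matrix values was not tested.

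Of 13 measured collagens 10 were above the control in both libraries and 1 was below in both, with median log2 ratios of 0.44 in library 1 and 1.14 in library 2. COL5A2, a chain of the collagen that starts fibrils, was at 142 and 308 CPM with ADAR siRNA and 86.0 CPM with control siRNA. COL3A1 was at 152 and 277 CPM against 89.8 CPM, and COL1A2, a chain of collagen I, at 1105 and 2355 CPM against 763 CPM. COL1A1, the partner chain of COL1A2, was at 11.1 and 125 CPM against 7.57 CPM, so that its rise rested on library 2. The 18 collagen modifying enzymes had medians of 0.14 and 0.34, with SERPINH1, the collagen chaperone, at 420 and 527 CPM against 337 CPM and LOXL2, a crosslinking oxidase, at 1502 and 1655 CPM against 1346 CPM. Of 21 metalloproteases 11 were above and 2 below in both. ADAMTS15, a protease of proteoglycans, was at 75.7 and 128 CPM against 33.6 CPM, or 2.25-fold (2.05 to 2.48) and 3.82-fold (3.50 to 4.16). MMP3, or stromelysin 1, was at 17.1 and 33.1 CPM against 10.3 CPM. Among 9 laminin and basement membrane genes 5 were above and 1 below in both, LAMA4 standing at 114 and 169 CPM against 76.8 CPM and LAMB3 at 7.22 and 3.30 CPM against 9.47 CPM. Of 8 integrins 4 were above and none below in both, with ITGA3 at 681 and 754 CPM against 524 CPM.

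Of 18 measured contractile genes 14 were above the control in both and 1 below, with medians of 0.32 in library 1 and 0.36 in library 2, and 5 had an unadjusted p under 0.05, all on the higher side, beside 1.21% of all genes on that side. CALD1, which encodes the actin regulator caldesmon, was at 279 and 411 CPM with ADAR siRNA and 174 CPM with control siRNA. TPM4, a tropomyosin, was at 1090 and 1340 CPM against 642 CPM, and MYL9, a myosin light chain, at 254 and 219 CPM against 154 CPM. All 3 lay above the control in both libraries by less than 3-fold. TAGLN, which encodes the actin-bundling protein transgelin, was at 12.7 and 39.9 CPM against 5.02 CPM, and ACTA2, smooth muscle actin, at 60.5 and 79.6 CPM against 41.9 CPM. FLNA, the abundant filamin, was at 6555 and 4375 CPM against 4610 CPM, on either side of the control.

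TGF-beta is the growth factor family best known for driving matrix and contractile genes. Of 24 measured ligands, receptors and binding proteins 15 were above the control in both libraries and 3 below, with medians of 0.13 in library 1 and 0.51 in library 2, and of 17 SMAD targets 10 were above and none below in both, with medians of 0.09 and 0.80. LTBP3, which stores latent TGF-beta in the matrix, was at 347 and 410 CPM with ADAR siRNA and 216 CPM with control siRNA. TGFB1, the ligand, was at 54.1 and 80.3 CPM against 120 CPM, and TGFBR3, the coreceptor betaglycan, at 58.9 and 94.97 CPM against 126 CPM. Ligand and coreceptor were thus below the control in both libraries while the binding protein was above it. TGFBI, a TGF-beta-induced matrix protein, was at 339 and 1328 CPM against 227 CPM, LTBP2 at 14.5 and 86.7 CPM against 17.2 CPM, and INHBA, the activin A subunit, at 9.84 and 32.0 CPM against 7.57 CPM. BAMBI, a decoy receptor, was at 95.1 and 127 CPM against 64.1 CPM, ID1 at 314 and 364 CPM against 252 CPM and ID3 at 221 and 250 CPM against 170 CPM. Most of the distance in TGFBI and LTBP2 was in library 2.

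YAP and TEAD targets were above the control in both libraries for 10 of 19 members and below for 1, with medians of 0.24 and 0.33. FJX1, a secreted Fat pathway protein, was at 227 and 237 CPM against 141 CPM, CCN1 at 720 and 781 CPM against 581 CPM, and CCN2, or CTGF, at 338 and 757 CPM against 317 CPM. Among 6 IGF binding genes 5 were above in both and none below. IGFBP3, the main carrier of IGF in serum, was at 115 and 426 CPM against 66.2 CPM, and IGFBP7 at 10.4 and 32.9 CPM against 7.42 CPM. Of 12 EMT regulators and mesenchymal markers 6 were above and 2 below; the regulators ZEB1 (94.8 and 116 CPM against 106 CPM) and SNAI1 (4.66 and 5.09 CPM against 5.37 CPM) stayed near the control. Of 10 Eph receptors and ephrins 5 were above and none below, EPHA4 standing at 40.9 and 46.6 CPM against 29.7 CPM. Of 6 Wnt antagonists and feedback genes, SFRP2 was at 61.0 and 136 CPM against 44.0 CPM and DKK3 at 39.8 and 55.7 CPM against 31.2 CPM.

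Other genes of the 2-fold rule belonged to none of these groups, except RGS5, one of the fibroblast and pericyte markers. RGS5, a regulator of G protein signalling known as a pericyte marker, was at 6.93 and 11.6 CPM with ADAR siRNA and 1.59 CPM with control siRNA (pair log2 fold change 2.54 ± 0.61; edgeR adjusted p = 0.918). Of the other fibroblast and pericyte markers, THY1 was also above the control in both libraries, at 191 and 200 CPM against 143 CPM, DCN was at 0 in the 3 libraries, LUM was at or under 0.0383 RPKM, and CSPG4 was at 3.38 and 11.7 CPM against 9.83 CPM. EDN1, which encodes endothelin 1, was at 9.66 and 10.2 CPM against 4.04 CPM, and ACKR3, a scavenging chemokine receptor, at 5.24 and 9.04 CPM against 1.74 CPM. MAP2, a microtubule protein of neurons, was at 13.5 and 10.8 CPM against 4.09 CPM, SLC1A6, a glutamate transporter, at 8.38 and 7.20 CPM against 2.66 CPM, and RYR3, a calcium release channel, at 19.3 and 18.1 CPM against 8.50 CPM. HABP4, an RNA-binding protein, was at 49.5 and 66.9 CPM against 24.2 CPM. In these 4 genes the 2 libraries lay closer to each other than to the control. The remaining higher genes were PLAC9, MXRA5, PLXDC1, KCNS1, CYP39A1, the antisense and divergent transcript OSER1-DT and ENSG00000226919, with levels in the ADAR siRNA libraries between 4.95 CPM (CYP39A1, library 1) and 26.1 CPM (ENSG00000226919, library 1). Just outside the limit, and within it by the plain ratio, were NTN4, a netrin (99.8 and 112 CPM against 49.8 CPM), H3C10, a histone H3 gene (27.8 and 25.9 CPM against 12.9 CPM), and HERPUD2-AS1 (7.86 and 8.21 CPM against 3.89 CPM).

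On the lower side, CKAP4, an endoplasmic reticulum membrane protein, was at 3.55 and 4.27 CPM with ADAR siRNA and 11.5 CPM with control siRNA (pair log2 fold change -1.55 ± 0.30; edgeR adjusted p = 0.231 and DESeq2 adjusted p = 0.0309). CHI3L2, a secreted chitinase-like protein, was at 68.1 and 51.7 CPM against 146 CPM, and MGST1, a membrane-bound glutathione transferase, at 16.4 and 14.5 CPM against 35.5 CPM. The 3 genes were lower by similar amounts in both libraries. RN7SL3, one copy of the RNA of the signal recognition particle, was at 9.31 and 9.18 CPM against 29.4 CPM (edgeR adjusted p = 0.0875 and DESeq2 adjusted p = 0.00184); near-identical copies exist and such RNA lacks a normal poly(A) tail, so this value is uncertain.

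Replication-dependent histone genes, whose messages end in a stem-loop and mostly lack a poly(A) tail, were above the control in both libraries for all 8 members that reached 5 CPM on average; 26 were listed and 23 were tested. Their median log2 ratios were 0.68 in library 1 and 0.96 in library 2, and 6 of the 8 had an unadjusted p under 0.05, beside 1.21% of all genes on the higher side. H2AC6 was at 127 and 141 CPM with ADAR siRNA and 78.3 CPM with control siRNA, H1-2 at 37.2 and 40.6 CPM against 21.3 CPM, and H2BC12 at 69.4 and 75.9 CPM against 49.1 CPM. Histone genes have near-identical copies, and poly(A) RNA was captured, so these values reflect the captured part alone.

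Mitosis genes were below the control, with 24 of 29 below in both libraries and none above in both, by small amounts: the median log2 ratio was -0.16 in library 1 and -0.30 in library 2. CCNB1, the mitotic cyclin, was at 521 and 465 CPM with ADAR siRNA and 608 CPM with control siRNA, CDK1 at 154 and 140 CPM against 185 CPM and NDC80, a kinetochore protein, at 77.6 and 73.1 CPM against 95.9 CPM. No mitosis gene had an unadjusted p under 0.05. DNA replication genes were nearer to the control, with 15 of 36 below and 5 above in both and medians of -0.01 and -0.14, RRM2 standing at 723 and 677 CPM against 813 CPM and MCM5 at 220 and 168 CPM against 173 CPM. Of 7 CDK inhibitors 5 were above and none below in both. CDKN2C (p18) was at 264 and 415 CPM against 214 CPM and CDKN2B (p15) at 109 and 178 CPM against 83.1 CPM. CDKN1A (p21) lay on either side of the control, at 57.3 and 88.2 CPM against 61.6 CPM. Libraries are bulk, so fewer cells in a phase and less RNA per cell cannot be told apart. Of 19 p53 targets 4 were above and 6 below in both, and of 18 apoptosis regulators, with BIRC3 among them, 3 were above and 6 below. Over all 10518 genes 28% were above and 34% below in both, so the shares below in these lists were near that of all genes.

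Genes of translation and respiration lay slightly below the control in large numbers. Of 83 cytosolic ribosomal protein genes 60 were below in both libraries and 2 above, with medians of -0.11 and -0.23, and of 72 nuclear genes of the respiratory chain 62 were below and 2 above, with medians of -0.16 and -0.25. RPS29 was at 118 and 107 CPM with ADAR siRNA and 168 CPM with control siRNA, RPL37A at 356 and 340 CPM against 449 CPM and COX4I1, a subunit of cytochrome oxidase, at 195 and 165 CPM against 238 CPM. None of these genes had an unadjusted p under 0.05. The 13 mitochondrially encoded genes did not share the shift, with medians of 0.03 and -0.01. Of 22 small nucleolar RNA host genes 14 were below and 1 above in both, GAS5 standing at 127 and 98.5 CPM against 140 CPM. The small-subunit processome, to which NOP14 belongs, had medians of 0.09 in library 1 and -0.31 in library 2 over 44 genes, so the libraries differed in sign.

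Cholesterol synthesis (23 genes), hypoxia and glycolysis (24), lysosome and autophagy (28) and the ZNF genes (353) were among the lists with medians within 0.15 of 0 in both libraries. Within them, SQSTM1, the autophagy receptor p62, was at 480 and 484 CPM with ADAR siRNA and 712 CPM with control siRNA, and LAMP2, a lysosomal membrane protein, at 481 and 419 CPM against 648 CPM. HMGCS1, of sterol synthesis, was at 157 and 192 CPM against 126 CPM.

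**Figure D2:**
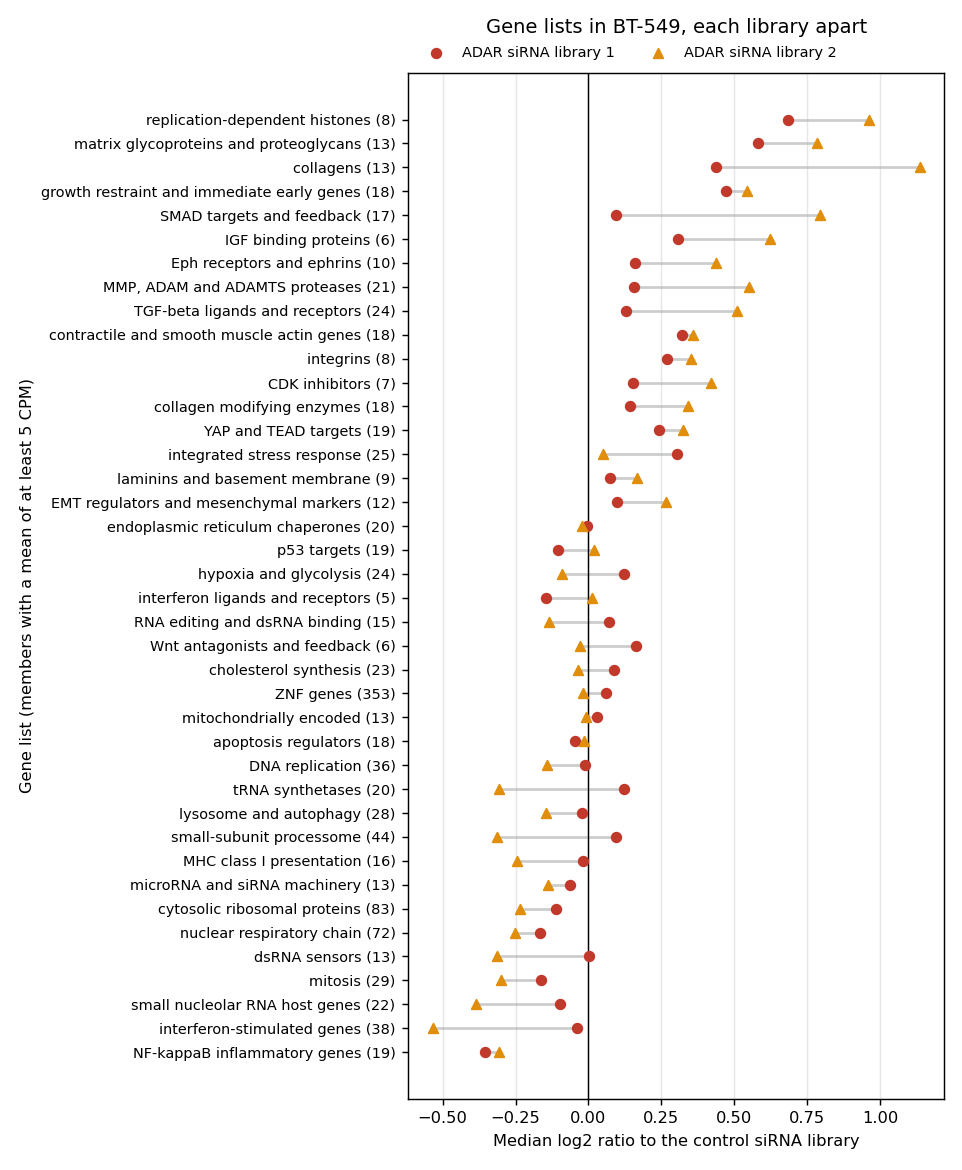
Median log2 ratio to the control siRNA library of each gene list with at least 5 members averaging 5 CPM or more (number of members in brackets), with circles for library 1 and triangles for library 2. Histone, matrix and collagen genes stand at the right and NF-kappaB genes at the left (-0.35 and -0.31), while interferon-stimulated genes and the small-subunit processome show a wide gap between the libraries.

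Library 2 held more and larger differences than library 1. The median absolute log2 ratio over the 10518 genes was 0.154 in library 1 and 0.234 in library 2, with about the same residual ADAR. Of its 30 calls 19 averaged at least 5 CPM, 15 of them higher and 4 lower (ADAR, TLE3, DKK1 and RN7SL3). The simulation, with 200 genes changed by design, called 24 unchanged genes in this comparison, which does not give the number of false calls among the 30. COL1A1 (hg38, chromosome 17, 50184101 to 50201632) rose to 125 CPM in library 2, against 7.57 CPM in the control (log2 fold change 4.05 ± 0.51; edgeR adjusted p = 3.7e-05), with 11.1 CPM in library 1. IGFBP3 rose to 426 CPM against 66.2 CPM (2.69 ± 0.38; edgeR adjusted p = 0.000112), and PGF, which encodes placental growth factor, to 446 CPM against 74.2 CPM (2.59 ± 0.42; edgeR adjusted p = 0.00185) with 48.1 CPM in library 1. Library 1 was thus above the control for COL1A1 and IGFBP3 and below it for PGF.

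Also higher in library 2 were FN1, COL5A2, THBS1, ADAMTS15, TAGLN and IGFBP7, with the levels given above, and ABI3BP, a collagen-binding matrix protein, at 61.2 CPM against 8.55 CPM in the control and 9.66 CPM in library 1. GSN, which encodes the actin-severing protein gelsolin, was at 185 CPM in library 2 against 57.8 CPM in the control, with 59.1 CPM in library 1, and TUBA1A, an alpha-tubulin, at 209 CPM against 52.5 CPM, with 96.5 CPM in library 1. GSN in library 1 was level with the control, while TUBA1A was above it in both. HIP1, an endocytic adaptor, was at 62.9 CPM against 14.6 CPM, and EEIG1 and KIAA1522 were also called. TLE3, a Groucho corepressor of Wnt target genes, fell to 2.84 CPM in library 2, against 12.3 CPM in the control (-2.11 ± 0.39; edgeR adjusted p = 0.00942), with 14.7 CPM in library 1. DKK1, the secreted Wnt antagonist, fell to 15.6 CPM, against 58.9 CPM (-1.91 ± 0.37; edgeR adjusted p = 0.0123), with 63.9 CPM in library 1. Of the 19 genes, ADAR and IGFBP3 passed under every alternative run, and the count of 30 ranged from 2 (genes with at least 1 CPM in 2 of the 3 libraries) to 175 (without AGS), so most of these calls depend on which genes and lines share the fit.

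**Figure D3:**
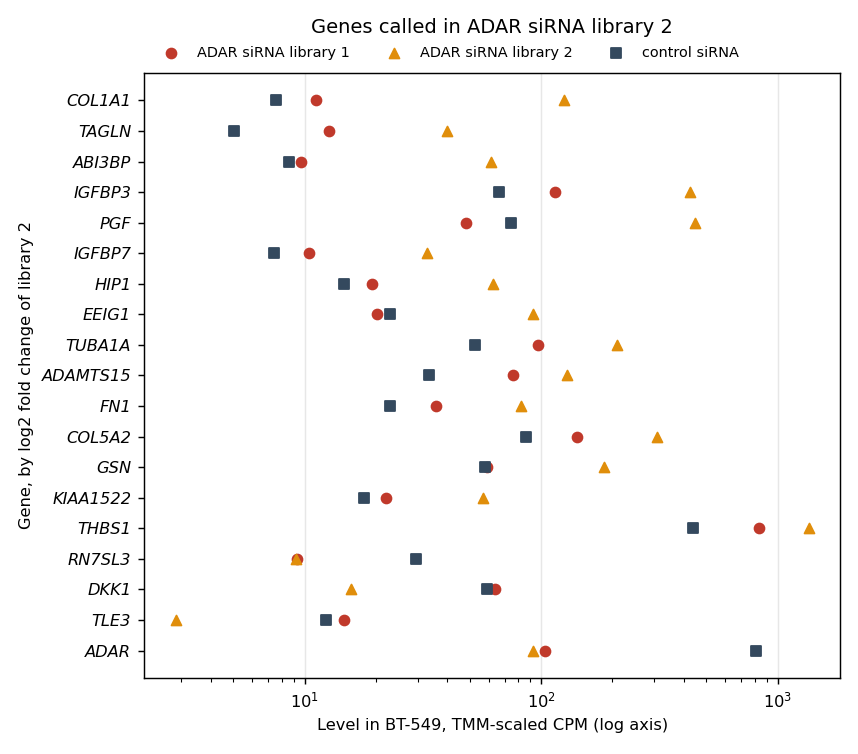
Level in the 3 BT-549 libraries, in TMM-scaled CPM on a log axis, of the 19 genes called in ADAR siRNA library 2 that averaged at least 5 CPM, ordered by log2 fold change of library 2. In COL1A1, PGF, GSN, DKK1 and TLE3 the circle of library 1 lies near the square of the control, whereas ADAR has both ADAR siRNA symbols together at 104 and 92.7 CPM.

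The difference between the 2 ADAR siRNA libraries was tested directly. edgeR called 12 of 23959 genes (0.0501%), 10 higher in library 2 (0.0417%) and 2 lower (0.00835%), and 1141 (4.76%) had an unadjusted p under 0.05. No gene was called with protein-coding genes alone (727 at an unadjusted p under 0.05) or with at least 1 CPM in 2 of the 3 libraries (491), 2 were without MDA-MB-231, 23 by DESeq2 and 162 without AGS, so these calls depend on the fit. Among those averaging at least 5 CPM, COL1A1 was higher in library 2 by 3.50 ± 0.50 on the log2 scale (edgeR adjusted p = 0.000484), PGF by 3.21 ± 0.43 (edgeR adjusted p = 0.000199) and IGFBP3 by 1.89 ± 0.37 (edgeR adjusted p = 0.0185). SDC3, a heparan sulfate proteoglycan, was at 47.8 CPM in library 2 and 8.50 CPM in library 1, with 13.97 CPM in the control. TLE3 (-2.36 ± 0.39; edgeR adjusted p = 0.00245) and DKK1 (-2.03 ± 0.37; edgeR adjusted p = 0.00914) were lower in library 2. EPHB2, an ephrin receptor, had the widest gap of the genes compared but did not pass, at 20.4 CPM in library 2 and 1.05 CPM in library 1 with 2.05 CPM in the control. HSPG2, which encodes perlecan, was at 63.7 CPM in library 2 and 6.23 CPM in library 1, on either side of the control at 23.4 CPM. VSIR, the immune checkpoint VISTA, ran the other way, at 1.79 CPM in library 2 and 10.5 CPM in library 1, with 1.84 CPM in the control. The libraries share their residual ADAR level within 1.13-fold, and what else differed between them is not given in the labels.

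Set against the other 3 lines, ADAR fell by 3.04 in BT-549 and by 2.34 over the mean of the others, a difference of -0.70 ± 0.30 that had an unadjusted p of 0.0317 in edgeR's fit and did not pass the adjustment. No gene passed in this contrast by edgeR or DESeq2 (0 of 23959; 647 genes or 2.7% at an unadjusted p under 0.05 in edgeR, 358 in DESeq2); genes with no counts in another line cannot be judged in it. The smallest p belonged to TRAF1 (-2.31 ± 0.47; edgeR unadjusted p = 0.000133). With no filter on low counts edgeR called 4 genes in this contrast, and without AGS it called 3. TRAF1 and BIRC3 were among them each time, so the count of 0 depends on the fit. TRAF1 was at 4.77 and 6.10 CPM against 21.95 CPM in BT-549, whereas MDA-MB-231 had 63.2 and 67.8 CPM against 36.7 CPM. NCI-H1395 had 114 and 80.6 CPM against 78.0 CPM, and AGS cells, where TRAF1 was low, had 2.46 and 0.738 CPM against 1.90 CPM. BT-549 was thus the one line of the 4 in which both ADAR siRNA libraries were below the control for TRAF1, and MDA-MB-231 ran the opposite way. BIRC3 was at 39.1 and 30.005 CPM against 88.3 CPM in BT-549 and 119 and 136 CPM against 59.2 CPM in MDA-MB-231. The difference from the 3 lines was -1.59 (edgeR unadjusted p = 0.00915). NCI-H1395 had 527 and 457 CPM of BIRC3 against 529 CPM, and AGS had 169 and 63.6 CPM against 142 CPM. Library 2 was thus below the control for BIRC3 in these lines too. DMD, which encodes dystrophin, was at 16.5 and 36.4 CPM against 12.5 CPM in BT-549 and at 0.0683 and 0 CPM against 4.07 CPM in MDA-MB-231. CKAP4 (-1.34 ± 0.34) and MGST1 (-1.38 ± 0.36) were next on the lower side, with CKAP4 at 215 and 262 CPM against 268 CPM in MDA-MB-231.

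The lists placed BT-549 apart from some lines and near others. For the NF-kappaB genes, the medians of libraries 1 and 2 were -0.35 and -0.31 in BT-549, whereas MDA-MB-231 had 1.01 and 1.04. Each line's median takes the members that averaged at least 5 CPM there, so the sets differ. Over the 17 members measured in MDA-MB-231, BT-549 had -0.29 and -0.31. In NCI-H1395 (0.04 and -0.10) and AGS (0.14 and -0.32) the libraries lay on either side of 0. For the histone genes they were 0.68 and 0.96 in BT-549, -0.85 and -0.39 in MDA-MB-231 and 0.94 and 0.67 in NCI-H1395; AGS had fewer than 5 members at this level. Over the 7 histone members measured in MDA-MB-231, BT-549 had 0.70 and 0.92. BT-549 and MDA-MB-231, the breast lines, thus stood on opposite sides in both lists. DNA replication genes had medians of -0.01 and -0.14 in BT-549, against values between -0.87 and -0.40 in the other 3 lines. For interferon-stimulated genes, library 2 lay below library 1 in BT-549 (-0.53 and -0.04) and NCI-H1395 (-1.03 and 0.08) and above it in MDA-MB-231 (0.15 and -0.04) and AGS (0.27 and -0.02). List medians carry no test, and the differences between lines in them were not tested.

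**Figure D4:**
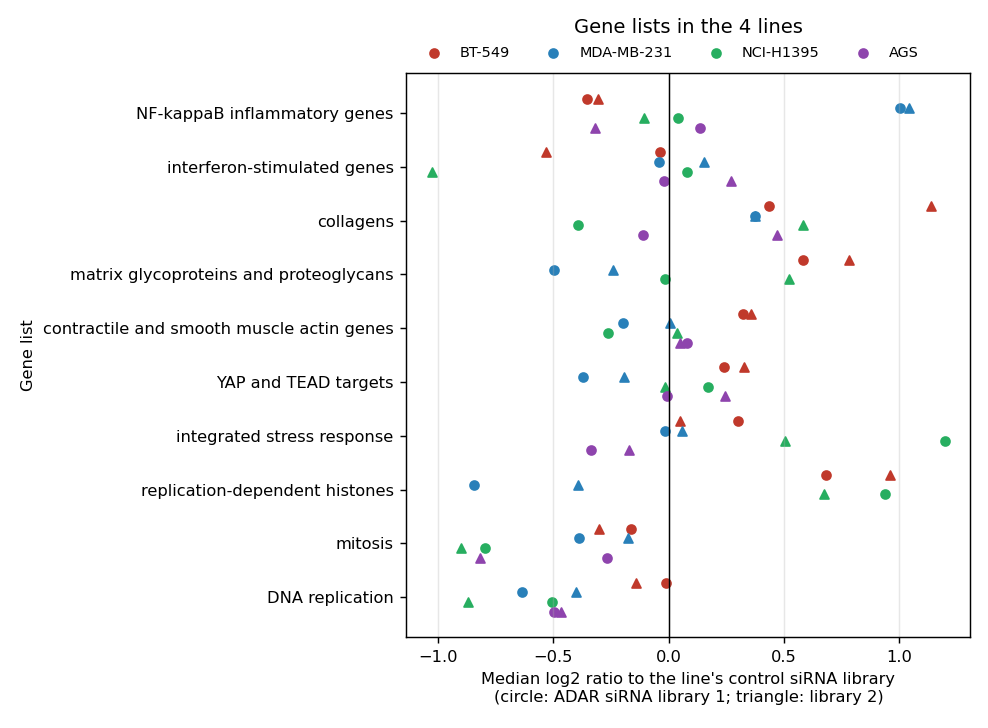
Median log2 ratio of 10 gene lists to the control siRNA library of the same line, with circles for ADAR siRNA library 1 and triangles for library 2, over members averaging at least 5 CPM in that line (lists with fewer than 5 such members in a line are left out there). NF-kappaB genes lie at -0.35 and -0.31 in BT-549 and at 1.01 and 1.04 in MDA-MB-231, and DNA replication genes lie nearer to 0 in BT-549 than in the other lines.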

How the data were processed

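Beads captured the poly(A) RNA, and random hexamers primed its cDNA, per the labels' protocols. Tools named in the submitters' processing notes are fastp 0.23.4, STAR 2.7.11a and featureCounts 2.0.6, with hg38. The authors deposited whole-number counts per gene. No source used here says whether reads were counted by strand. Of 62702 lines, 3 broken lines of 1 gene (ANK2) were not used.

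Tests ran in R 4.3.3 with edgeR 4.0.16 (filterByExpr, TMM scaling, robust quasi-likelihood, Benjamini-Hochberg adjustment, threshold 0.05) on the 12 siRNA libraries. The pair fit had 8 groups and 4 residual degrees of freedom, and the single-library fit 9 groups and 3, with its spread taken from the other 3 lines. Errors are standard errors of log2 fold changes. The log2 ratios of single libraries use a prior count of 2. p-values measure only the spread between libraries, which may be technical. In simulated data of 22723 genes, 17 unchanged genes were called in the pair fit, 31 and 24 in the fits of libraries 1 and 2 and 16 in the contrast with the other lines. False calls thus exceeded the nominal rate in that simulation, in which 200 genes were changed by design.

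The members, the 47 gene lists and the rules were chosen with earlier results of these data known. Named genes are ADAR, ADARB1 and NOP14, the genes called over the pair (up to 15 each way), the 3 members of each list with the smallest p, the 6 smallest p against the other lines, and the 5 largest gaps each way between libraries 2 and 1; genes called in a single library, genes of the 2-fold rule and further list members were chosen after their values were seen. The minimum of 5 CPM and the direct test of library 2 against library 1 were also set after the data were seen. Samples 1 and 2 share a number across lines; the check of pairing is in the closing section. Alternatives were DESeq2 1.42.0, other scalings and filters, protein-coding genes alone, a replicate block, the BT-549 libraries alone, and leaving out each line or ADAR siRNA library. Figures used matplotlib 3.10.9. Values of some genes are not reported here.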

Additional observations from a re-analysis of the deposited data

Results flagged for a closer look

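Gene lists are given here whose medians lay on opposite sides of the control, in both ADAR siRNA libraries, in BT-549 and in another line. Each of these medians had to be at least 0.1 in size, so lists with smaller opposite medians are left out. The medians run over the members measured in that other line. The differences were not tested. NF-kappaB inflammatory genes had medians of -0.29 and -0.31 in BT-549 libraries 1 and 2, and 1.01 and 1.04 in MDA-MB-231. Replication-dependent histones had 0.70 and 0.92 in BT-549, and -0.85 and -0.39 in MDA-MB-231. Matrix glycoproteins and proteoglycans had 0.57 and 0.77 in BT-549, and -0.50 and -0.24 in MDA-MB-231. YAP and TEAD targets had 0.24 and 0.33 in BT-549, and -0.37 and -0.19 in MDA-MB-231. Eph receptors and ephrins had 0.19 and 0.42 in BT-549, and -0.34 and -0.14 in MDA-MB-231. Integrins had 0.16 and 0.37 in BT-549, and -0.42 and -0.13 in AGS.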

How the results depend on the processing

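ADAR passed in the pair and in both single libraries under every alternative run. Other counts of called genes moved, and the cause was not tested. For the pair (1 call), there were 27 with no filter on low counts, 3 with DESeq2, 6 without NCI-H1395 and 4 without AGS, and 1 to 32 when 1 ADAR siRNA library was left out (32 without library 1). For library 1 (1 call) there were 9 with no filter, 13 without NCI-H1395 and 28 without AGS. For library 2 (30 calls) there were 18 with library totals, 72 with no filter, 2 with at least 1 CPM in 2 of the 3 BT-549 libraries, 3 with protein-coding genes alone, 4 without MDA-MB-231, 108 without NCI-H1395 and 175 without AGS. For library 2 against library 1 (12 calls) there were 58, 0 (491 at an unadjusted p under 0.05 in edgeR), 0 (727), 2, 71 and 162 under the no filter, 1 CPM, protein-coding, MDA-MB-231, NCI-H1395 and AGS alternatives, and 23 with DESeq2. Shared calls (1) were 2 with no filter, 3 without NCI-H1395 (ADAR, TRAF1 and RN7SL3) and 5 without AGS (those, CKAP4 and H2AC13). Against the other lines (0 calls; 647 at an unadjusted p under 0.05 in edgeR, 0 by DESeq2) there were 4 with no filter, 3 without AGS (TRAF1, BIRC3 and RN7SL3) and 0 to 1 when 1 ADAR siRNA library was left out (COL1A1 without library 1). With a minimum of 1 CPM on average, chosen after seeing the data, the 2-fold rule took 89 higher and 27 lower genes, and with no prior count, also chosen after seeing the data, 24 and 8.

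The labels do not say that library numbers pair the samples, and not every pair of lines correlated above 0.1, so no pairing was taken as given. Over 12107 genes, deviations of library 2 from library 1 correlated at 0.46 between BT-549 and NCI-H1395, 0.23 between NCI-H1395 and AGS and 0.20 between BT-549 and AGS, while MDA-MB-231 had -0.09 with BT-549, -0.07 with NCI-H1395 and 0.05 with AGS. With the replicate block the pair gave 42 calls (28 higher and 14 lower), among them TRAF1 (edgeR adjusted p = 3.47e-06), BIRC3 (0.00118), COL1A1, POSTN, TXNIP and CHAC1, and the contrast with the other lines gave 9.

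The pair log2 fold change changed sign without library 2 for NOP14 (0.083, and -0.57 without library 1), FARSB (0.0054 and -0.62), NDRG1 (-0.033 and 0.77) and EPHB2 (-0.96 and 3.31). It did so without library 1 for ADARB1 (-0.14, and 0.29 without library 2), KRT18 (-0.035 and 0.37), XBP1 (-0.13 and 0.48), EGFL7 (0.085 and -0.51) and CSPG4 (0.25 and -1.53). Of the named genes' other values over the alternatives, 1848 kept their side of the threshold and 45 came to pass it. For the 19 genes called in library 2, 114 kept their call and 55 lost it. For the medians of 43 lists, 319 values moved by less than the spread between the libraries and 23 by more. Levels near 5 CPM rest on about 100 counts, and a single control library limits every comparison. With protein-coding genes alone, the mitochondrially encoded and small nucleolar RNA host lists had no members to give a median.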
